A study of Homo sapiens with 20 samples.

Results

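The control-transfected libraries of 2 human colorectal cancer cell lines were set against each other, to describe which genes give each line its identity before POLR1D is touched. Of the 20 RNA-seq libraries of the series, 10 belong here: 4 of HT29 and 6 of SW480, all labelled SCR, which is a transfection with a non-targeting control siRNA. Both lines are established lines from colorectal adenocarcinomas, HT29 grown in Dulbecco's modified Eagle's medium and SW480 in RPMI medium as the study's methods give them. The other 10 libraries, 4 of HT29 and 6 of SW480, carry a siRNA against POLR1D (siPOLR1D-2 or siPOLR1D-3) and serve below as a repeat of the comparison in libraries not used for it. Line and medium move together, so they cannot be told apart, and with 1 line on each side the p-values measure only the spread between these libraries, which may be technical.

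The deposited values are read counts per gene that the authors normalized within each line, so all 10 libraries were rescaled to a common upper quartile, and "level" below means that rescaled value. Of 36346 gene names, 15080 had a level of at least 10 in at least 4 libraries and were tested with limma on log2(level + 1). A positive log2 difference means higher in HT29. The libraries held between an estimated 14200000 and 27600000 reads. Across genes, log2 levels correlated between 0.95 and 0.981 among the HT29 libraries, between 0.940 and 0.985 among the SW480 libraries and between 0.747 and 0.782 across the lines. Within a line the libraries were not alike: HT29 replicate 1 stood apart from replicates 2 to 4, and SW480 replicates 2 and 3 stood apart from replicates 4 to 6. A comparison of HT29 replicates 2 to 4 with SW480 replicates 4 to 6, which also leaves out SW480 replicate 1, is given beside the results named below that lost or gained a call in it.

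Colon epithelium holds stem cells at the base of its crypts, which are kept dividing by Wnt signalling, and their descendants become absorptive colonocytes or mucus-secreting goblet cells. Colorectal cancer cells keep some of these programs and lose others. Epithelial cells are bound to each other by cadherin and claudin junctions, a state held by transcription factors such as GRHL2, while repressors such as ZEB1 and SNAI2 turn junction genes off in cells with mesenchymal features. Interferon-stimulated genes form another program that cells switch on as a group. HT29 carries an activated BRAF, and both lines carry a truncated APC, the brake on Wnt signalling.

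The regulatory sequences of the interferon and junction genes that follow are shown here because members of both lists moved together between the lines. The 300 bases from 250 before to 50 after each gene's start were read from RefSeq on GRCh38.p14, and 10839 of the tested genes had such a window. Stretches of it upstream of the start are printed, 5′ to 3′, with motif matches in capitals. The interferon-response pattern, searched on both strands as 2 copies of TTTC (GAAA on the other strand) with any 2 bases between them, was found in 2.91% of the windows of all tested genes. It was found in 17 of the 31 windows of the tested interferon-list genes, in 12 of the 16 of those higher in HT29 and in 0 of the 3 of those higher in SW480.
IFI44, chr1:78649741-78649788, plus strand: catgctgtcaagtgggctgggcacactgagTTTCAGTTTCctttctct
IFIT1, chr10:89392477-89392559, plus strand: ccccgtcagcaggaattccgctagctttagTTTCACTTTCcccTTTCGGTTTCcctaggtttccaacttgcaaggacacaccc
ISG15, chr1:1013354-1013429, plus strand: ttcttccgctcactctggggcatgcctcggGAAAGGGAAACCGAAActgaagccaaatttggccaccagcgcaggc

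The match of IFI44 began 18 bases before the start, and IFIT1 and ISG15 each held 2 matches, which overlap in ISG15. The E-box CACCTG, or CAGGTG on the other strand, is the letter pattern that ZEB1 and SNAI2 are known to recognise. It was found in 19.0% of all windows, in 9 of the 20 windows of epithelial-list genes higher in HT29 and in 2 of the 3 windows of those higher in SW480. Over the 28 tested epithelial genes with a window it was found in 14.
RAB25, chr1:156061089-156061154, plus strand: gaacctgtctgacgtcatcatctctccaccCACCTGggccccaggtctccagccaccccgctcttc
CRB3, chr19:6464021-6464246, plus strand: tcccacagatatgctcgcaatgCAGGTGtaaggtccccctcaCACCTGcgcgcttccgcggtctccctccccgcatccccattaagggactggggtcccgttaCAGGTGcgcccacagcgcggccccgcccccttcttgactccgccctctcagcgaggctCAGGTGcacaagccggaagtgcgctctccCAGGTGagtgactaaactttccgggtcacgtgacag
RAB25, a small GTPase of apical recycling, held 2 matches, of which the one upstream of the start is printed, and CRB3, which builds apical polarity, held 5. A match is a run of letters only, and binding was not measured.

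The lines differed in most of the genes they express. At an adjusted p under 0.05 (limma, Benjamini-Hochberg over all genes tested), 3992 genes (26.5%) were higher in HT29 and 4405 (29.2%) were higher in SW480, 55.7% of the 15080 together. Of these, 2122 (14.1%) in HT29 and 3052 (20.2%) in SW480 were higher by 2-fold or more, 34.3% together. In 6566 genes (43.5%) every HT29 library lay on the same side of every SW480 library. With the values as deposited, without rescaling, the counts became 2320 and 6551 and the median over all genes moved from -0.02 to -0.42, so 26.1% of the called genes in place of 47.5% were higher in HT29. A list's share of called genes below is to be read against these percentages.

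**Figure D1:**
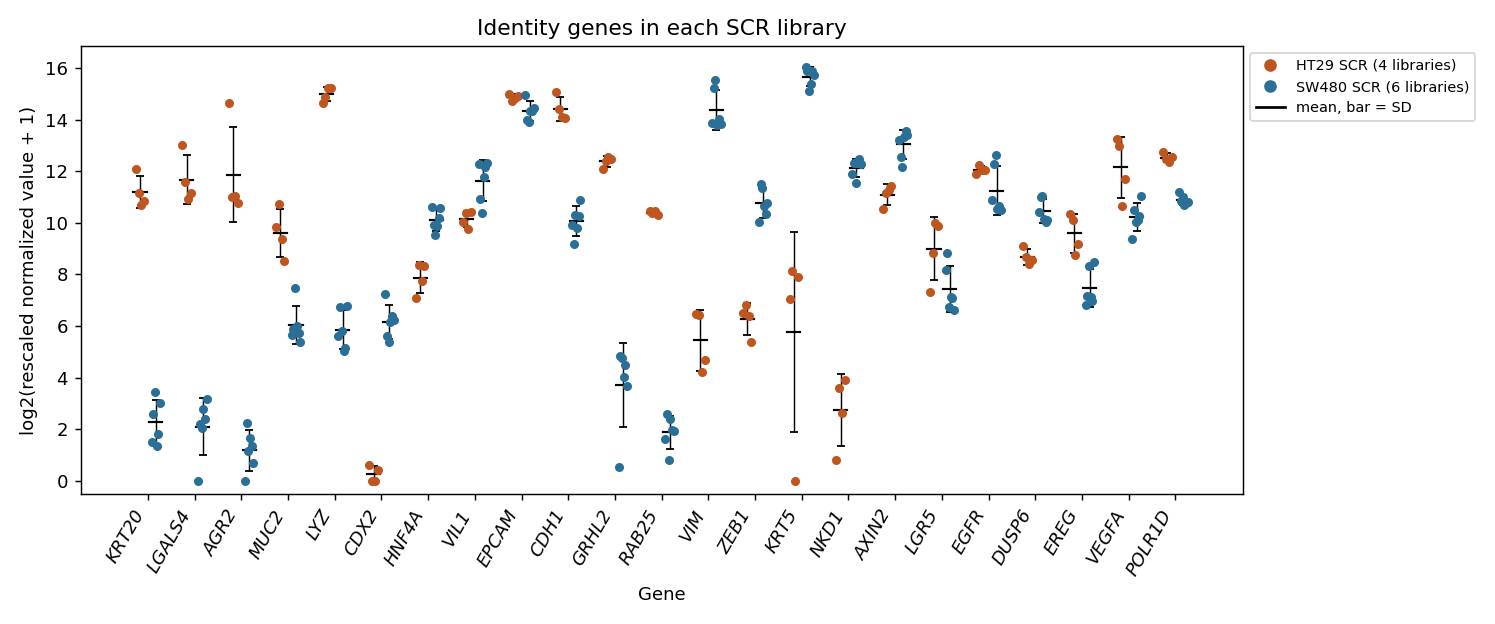
Level of 23 identity genes in each SCR library, as log2(level + 1) on the y axis; points are libraries, black bars the mean and SD over 4 HT29 (orange) and 6 SW480 (blue) libraries. KRT20, LGALS4, AGR2, CDH1, GRHL2 and RAB25 lie higher in HT29 and VIM, ZEB1, KRT5 and NKD1 in SW480 in every library, while EPCAM, EGFR, LGR5 and VEGFA overlap.

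Neither line held the whole colonocyte program, and each kept a different piece of it. Of 47 colonocyte genes, 33 were tested, 16 were higher in HT29, 14 in SW480 and 3 did not pass the test, with a median log2 difference of 0.38 against -0.02 over all genes. KRT20, the keratin of differentiated colonocytes, was at 4373, 2250, 1674 and 1856 in HT29 replicates 1 to 4 and between 1.56 and 10 in SW480 (median 3.83), a log2 difference of 8.90 ± 0.45 (SE). LGALS4, a galectin of the intestinal brush border, was at 8320, 3024, 1929 and 2301 in HT29 and between 0 and 8.15 in SW480 (median 3.99), a difference of 9.56 ± 0.59. Both genes were far apart between the lines in every library, and HT29 replicate 1 held the highest level of each. CA12, a carbonic anhydrase (7.49), and the adhesion molecules CEACAM1 (4.24), CEACAM5 (3.94) and CEACAM6 (2.93) were also higher in HT29 on the log2 scale.

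On the other side, CDX2, the homeobox factor that specifies intestine, was at 0.53, 0, 0 and 0.33 in the 4 HT29 libraries and between 40.6 and 150.8 in SW480 (median 73.0). Its paralog CDX1 was at 0 in all HT29 libraries and at most 0.95 in SW480 and was not tested. CDHR2, a cadherin that links brush border microvilli, had a log2 difference of -7.19 ± 0.63, and CDH17, the liver-intestine cadherin, of -5.34. HNF4A, a nuclear receptor of gut epithelium, was at 133.8, 326.8, 216.0 and 318.7 in HT29 and between 739.5 and 1585 in SW480, with no overlap. VIL1, the microvillar protein villin, was -1.49 ± 0.36 (adjusted p = 0.00411, limma), but HT29 levels of 855.7 to 1356 overlapped SW480 levels of 1316 to 5088. The libraries of the lines did not overlap for CDX2, CDHR2, CDH17 or HNF4A. Of the markers of a colorectal epithelial line, EPCAM, KRT8, KRT18 and KRT19 were high in both lines (KRT19, the lowest of them, at means of 8192 in HT29 and 6220 in SW480), and the intestinal markers CDX2 and GPA33 had means of 0.22 and 0.55 in HT29, near 0, and CDH17 one of 12.2 there, against 398.6 in SW480.

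More of the secretory genes were higher in HT29 than in SW480. Of 49 mucin and secretory-lineage genes, 31 were tested, 15 were higher in HT29, 7 in SW480, and the median was 1.32. AGR2, a disulfide isomerase needed to fold mucins, was at 25260, 2071, 2085 and 1763 in HT29 and between 0 and 3.72 in SW480 (median 1.42). Its log2 difference was 10.7 ± 0.71, and 9.76 without HT29 replicate 1. LYZ, lysozyme of Paneth cells, was at 25450, 30130, 37750 and 38450 in HT29 and between 32.0 and 108.2 in SW480. MUC2, the gel-forming mucin of goblet cells, was at 915.1, 1699, 667.2 and 362.1 in HT29 and between 41.2 and 175.6 in SW480, a difference of 3.59 ± 0.45 with no overlap. SPDEF (6.89) and CREB3L1 (7.35), transcription factors of secretory cells, and the mucin genes MUC20 (6.15) and MUC4 (4.33) were also higher in HT29. ATOH1, the switch to the secretory fate, was below the filter in both lines. The genes higher in SW480 were the endocrine and foregut factors PAX6 (-5.96) and FOXA2 (-5.42), GFI1 (-3.93), the granule protein CHGB (-3.93), KLF4 (-1.27), SYP (-2.44) and the trefoil factor TFF3 (-3.82).

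Epithelial junction genes were higher in HT29 and mesenchymal genes in SW480. Of 57 junction and keratin genes, 56 were tested, 39 were higher in HT29 and 8 in SW480, with a median of 1.14. Of 60 mesenchymal genes, 49 were tested, 8 were higher in HT29 and 30 in SW480, with a median of -2.94. CDH1, which encodes E-cadherin, was at 34560, 21950, 17770 and 17290 in HT29 and between 580.3 and 1905 in SW480 (median 1105), a log2 difference of 4.36 ± 0.30 (adjusted p = 1.89e-07, limma). GRHL2, a factor that keeps junction genes on, was at 4360, 5418, 6006 and 5699 in HT29 and between 0.47 and 27.8 in SW480. RAB25 was at 1390, 1340, 1394 and 1279 in HT29 and between 0.74 and 5.08 in SW480. CRB3, whose window held 5 E-boxes, differed by 1.72, the protease PRSS8 by 6.58, the channel-forming claudin CLDN2 by 6.12, and the splicing factors ESRP1 and ESRP2 by 2.06 and 2.02.

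EPCAM, an adhesion molecule of all simple epithelia, was close between the lines: 32950, 26680, 29530 and 30530 in HT29 and between 15310 and 31990 in SW480. Its difference of 0.54 ± 0.19 passed the test (adjusted p = 0.0307, limma) and no longer did with the values as deposited, where it was 0.15 (adjusted p = 0.537), or without any 1 of HT29 replicates 1, 3 and 4 or SW480 replicates 2, 3 and 5, where it was between 0.45 and 0.54. The junction-list genes that were higher in SW480 included KRT23 (-7.27), the P-cadherin CDH3 (-3.77), KRT7 (-1.75), the laminin chain LAMA3 (-1.55), CLDN1 (-1.53), DSP (-1.20) and PKP2 (-0.83). SW480 thus also held keratins and adhesion proteins at levels above those of HT29.

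VIM, the intermediate filament of mesenchymal cells, was at 87.5, 84.4, 17.5 and 24.9 in HT29 and between 14070 and 47070 in SW480 (median 15980), a difference of -8.93 ± 0.51 (adjusted p = 4.49e-08, limma). Its 2 highest levels were in SW480 replicates 2 and 3, at 37870 and 47070, and the other 4 libraries lay between 14070 and 16840. ZEB1 was at 89.5, 111.3, 82.1 and 40.6 in HT29 and between 1034 and 2934 in SW480, again highest in replicates 2 and 3. Both genes were far higher in SW480 in every library, whichever SW480 libraries are taken. SNAI2 (-7.25), the fibronectin receptor subunit ITGA5 (-8.56), the neural adhesion molecule L1CAM (-8.50), CDH11 (-8.47), the matrix protein SPARC (-7.65), the actin binder CALD1 (-7.89) and the receptor kinase AXL (-4.93) were also higher in SW480. TWIST1, ZEB2, CDH2 and POSTN, which define many mesenchymal cells, were below the filter. The 3 mesenchymal-list genes furthest toward HT29 were NNMT, a nicotinamide methyltransferase (7.55), the matrix protease MMP7 (6.74), which epithelial tumours also make, and the growth factor PDGFC (3.18).

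**Figure D2:**
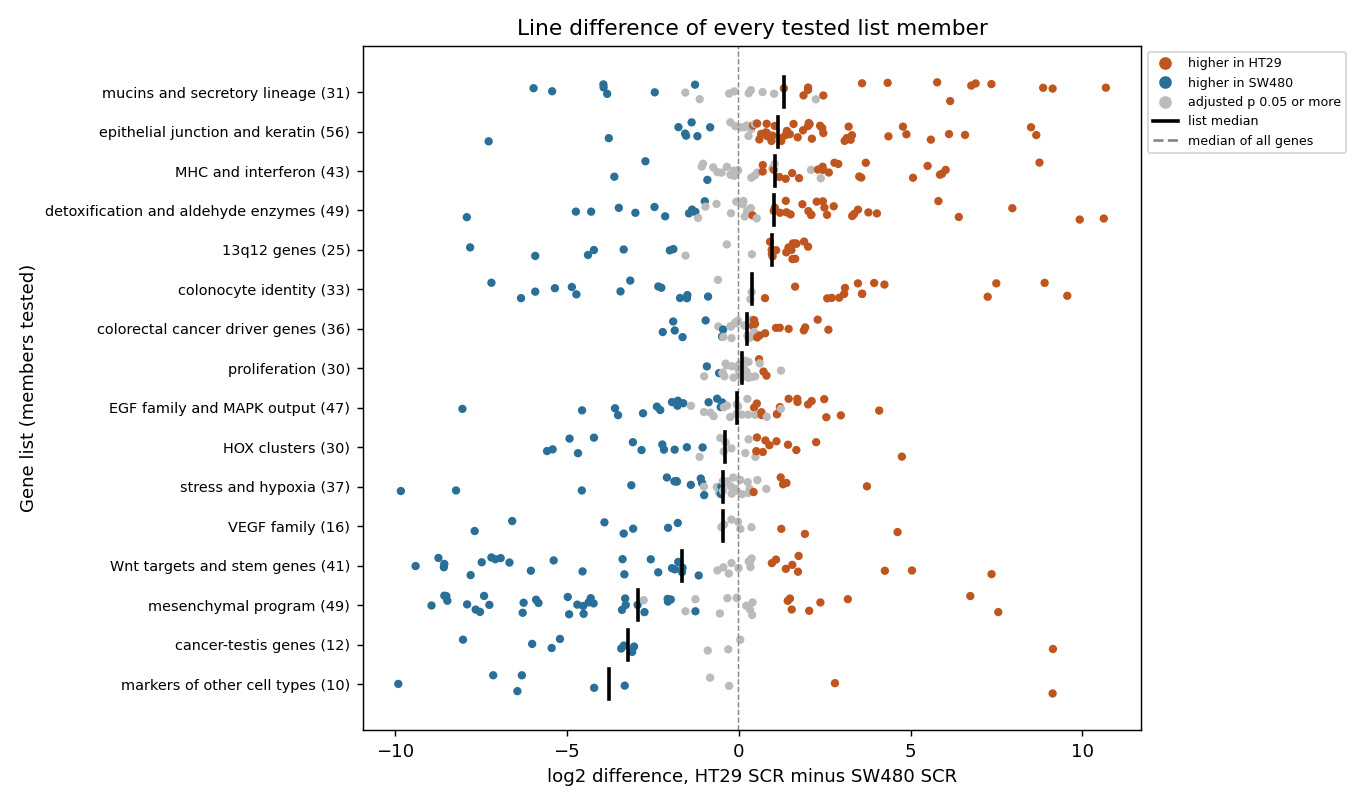
Log2 difference (HT29 SCR minus SW480 SCR, x axis) of every tested member of the 16 gene lists (y axis), coloured by the line in which it was higher, with the list median in black and the median of all tested genes dashed. The epithelial and secretory lists have medians of 1.14 and 1.32, the mesenchymal and Wnt lists of -2.94 and -1.64, and the proliferation list of 0.09.

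Wnt feedback genes were higher in SW480. Of 46 Wnt and stem cell genes, 41 were tested, 23 were higher in SW480 and 9 in HT29, with a median of -1.64. NKD1, a Dishevelled antagonist that Wnt signalling induces, was at 0.8, 11.1, 5.2 and 14.2 in HT29 and between 2996 and 5645 in SW480 (median 4989). NOTUM, an extracellular enzyme that inactivates Wnt ligands, was at 4.6, 0, 0 and 5.5 in HT29 and between 545.1 and 1677 in SW480. APCDD1, a membrane Wnt inhibitor, was between 1.6 and 15.6 in HT29 and between 1019 and 5603 in SW480, where replicates 2 and 3 held the lowest levels, 1818 and 1019. The lines did not overlap for any of the 3 inhibitors.

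AXIN2, a common readout of the pathway, was high in both lines, at 1481, 2307, 2456 and 2740 in HT29 and between 4582 and 12000 in SW480 (median 9837), a difference of -1.94 ± 0.27 (adjusted p = 8.41e-05, limma). The transcription factor LEF1 (-7.47), the secreted antagonist DKK4 (-7.19), SP5 (-6.04), CCND1 (-3.38), EPHB2 (-3.32), MYC (-1.63) and CTNNB1 itself (-1.86) were higher in SW480. RNF43, ZNRF3, SOX9, TCF7L2 and APC had differences between -0.44 and 0.38 and did not pass the test. The stem cell markers were split. TNFRSF19 (-6.92) and SMOC2 (-2.34) were higher in SW480, and BMI1 (0.32) did not pass the test. PROM1, the surface protein CD133, was at 729.1, 566.5, 724.2 and 1001 in HT29 and between 0.34 and 16.7 in SW480. LGR5, a receptor for R-spondins, was at 159.3, 460.7, 1013 and 927.7 in HT29 and between 98.2 and 460.3 in SW480, so the lines overlapped. Its difference of 1.56 ± 0.56 (adjusted p = 0.0312, limma) ranged from 1.07 in a fit with SW480 replicates 1 to 3 alone (adjusted p = 0.238) to 2.61 for HT29 replicates 2 to 4 against SW480 replicates 4 to 6 (adjusted p = 0.00014). It lost its call without any 1 of HT29 replicates 2, 3 and 4 or SW480 replicates 3, 4, 5 and 6, where it was between 1.23 and 1.61.

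Genes of the EGF family and of MAPK output were split between the lines. Of 50 genes, 47 were tested, 16 were higher in HT29 and 15 in SW480, with a median of -0.05. The ligands EGF (4.09), BTC (2.97) and EREG (2.12) and the receptors ERBB2 (1.46) and ERBB3 (1.12) were higher in HT29. EREG, the epiregulin gene, was at 1310, 1113, 436.6 and 575.4 in HT29 and between 111.2 and 357.8 in SW480, with no overlap (adjusted p = 0.000811, limma). The phosphatase DUSP6, which active ERK induces, was at 556.2, 412.2, 339.0 and 372.7 in HT29 and between 1040 and 2122 in SW480, a difference of -1.77 ± 0.23. DUSP5 (-2.28), SPRY4 (-1.94), ETV1 (-3.51), ETV5 (-1.61), FOSL1 (-1.78) and EGR1 (-2.78) were also higher in SW480, while PHLDA2 (2.55), SPRED1 (1.71) and SPRY1 (1.11) were higher in HT29. DUSP4 (-0.05), PHLDA1 (-0.34) and SPRED2 (0.28) did not pass the test. The ephrin receptor EPHA4 (-8.03) and ERBB4 (-4.55) were the receptors furthest toward SW480.

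EGFR depended on which SW480 libraries were read. It was at 3812, 4848, 4272 and 4240 in HT29 and at 5031 and 6268 in SW480 replicates 2 and 3, but between 1449 and 1867 in the other 4 SW480 libraries. The difference was 0.82 ± 0.41 over all libraries (adjusted p = 0.11, limma; exact permutation test, 2-sided, p = 0.143). It was 0.14 with SW480 replicates 1 to 3 alone (adjusted p = 0.789) and 1.5 with replicates 4 to 6 alone (adjusted p = 1.36e-05), and it passed the test without SW480 replicate 2 (1.03, adjusted p = 0.0389) or replicate 3 (1.09, adjusted p = 0.0146). For HT29 replicates 2 to 4 against SW480 replicates 4 to 6 it was 1.55 (adjusted p = 4.76e-06).

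VEGFA, the target of bevacizumab, was higher in HT29 and variable there. Its level was 9640, 8071, 1627 and 3357 in HT29 and between 670.8 and 2126 in SW480 (median 1167), so HT29 replicate 3 lay within the SW480 range. The log2 difference was 1.93 ± 0.46 (adjusted p = 0.00344, limma; exact permutation p = 0.0191, 2-sided). For HT29 replicates 2 to 4 against SW480 replicates 4 to 6 it was 1.31 and did not pass the test (adjusted p = 0.0567). Of 23 genes of the VEGF family and its partners, 16 were tested. Of these, 3 were higher in HT29 and 7 in SW480, a share of 62.5% against 55.7% of all genes. The median was -0.46, and it was 0.08 with quantile normalization and -1.14 with a filter of 50. ANGPT1 (4.62) and VEGFB were the other 2 in HT29. The co-receptors NRP2 (-7.68) and NRP1 (-1.77), the receptor FLT1 (-3.34), and FGF20, FGF18 and FGF9 (-6.58, -3.90 and -3.07) were higher in SW480, as was EPAS1, a hypoxia-inducible factor (-2.05). FLT1 was at 2.01 to 8.57 in HT29 and 3.81 to 237.6 in SW480, so the lines overlapped, and it did not pass the test with SW480 replicates 1 to 3 alone (-1.55, adjusted p = 0.171) or with a replicate block (-2.51, adjusted p = 0.0501). KDR, the main VEGF receptor of endothelium, was below the filter.

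Interferon-stimulated genes were higher in HT29, and unevenly so among its libraries. Of 50 genes of antigen presentation and interferon response, 43 were tested, 22 were higher in HT29 and 3 in SW480, with a median of 1.05. IFI44 was at 187.4, 144.3, 1558 and 2902 in HT29 and between 0 and 3.14 in SW480, a difference of 8.75 ± 0.83 (adjusted p = 3.04e-06, limma). IFIT1, which binds viral RNA, was at 246.8, 164.4, 1122 and 2447 in HT29 and between 5.44 and 18.9 in SW480, a difference of 5.92 ± 0.68. ISG15, a ubiquitin-like modifier, was at 280.4, 143.8, 648.8 and 956.4 in HT29 and between 40.1 and 70.2 in SW480. The lines did not overlap for any of these 3 genes, whose promoters hold the interferon-response pattern printed above.

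Among 15 interferon-stimulated genes of the list, 14 were higher in both of HT29 replicates 3 and 4 than in both of replicates 1 and 2. The mean of replicates 3 and 4 was between 1.52 and 58.9 times that of replicates 1 and 2, with a median of 8.68 times. OAS2, at 37.99 and 24.7 in replicates 1 and 2 and 990.4 and 2697 in replicates 3 and 4, and IFI6, at 43.1, 37.3, 487.8 and 1505, overlapped SW480 in the lower pair and did not pass the test. IFIT2 was an exception, at 325.8, 145.4, 303.9 and 414.2. OASL, at 282.6, 115.5, 322.6 and 429.8 in HT29 and at most 13.4 in SW480, and the DNA sensor CGAS (5.86) were higher in HT29. What set the HT29 libraries apart was not tested.

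The class I genes were split between the lines. HLA-B was at 39.5, 33.0, 494.3 and 1064 in HT29 and between 630.5 and 1309 in SW480, a difference of -2.71 ± 0.84 (adjusted p = 0.0160, limma). HT29 replicates 3 and 4 were again above replicates 1 and 2. The call was lost without HT29 replicate 1 (-2.04, adjusted p = 0.0525) or replicate 2 (-1.95, adjusted p = 0.0581), with SW480 replicates 1 to 3 alone (-2.51, adjusted p = 0.107) or 4 to 6 alone (-2.91, adjusted p = 0.0653), and for HT29 replicates 2 to 4 against SW480 replicates 4 to 6 (-2.24, adjusted p = 0.1). HLA-C (-0.91) and MICB (-3.61), a stress ligand for natural killer cells, were also higher in SW480, while B2M, the shared light chain, was higher in HT29 (1.56). HLA-C lost its call in that last comparison (-0.86, adjusted p = 0.0599) and with SW480 replicates 1 to 3 alone (-0.88, adjusted p = 0.0609). The HLA genes and MICB are listed several times for alternative haplotypes, and these values were summed, and reads can pass between these near-identical genes, so their levels are uncertain.

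**Figure D3:**
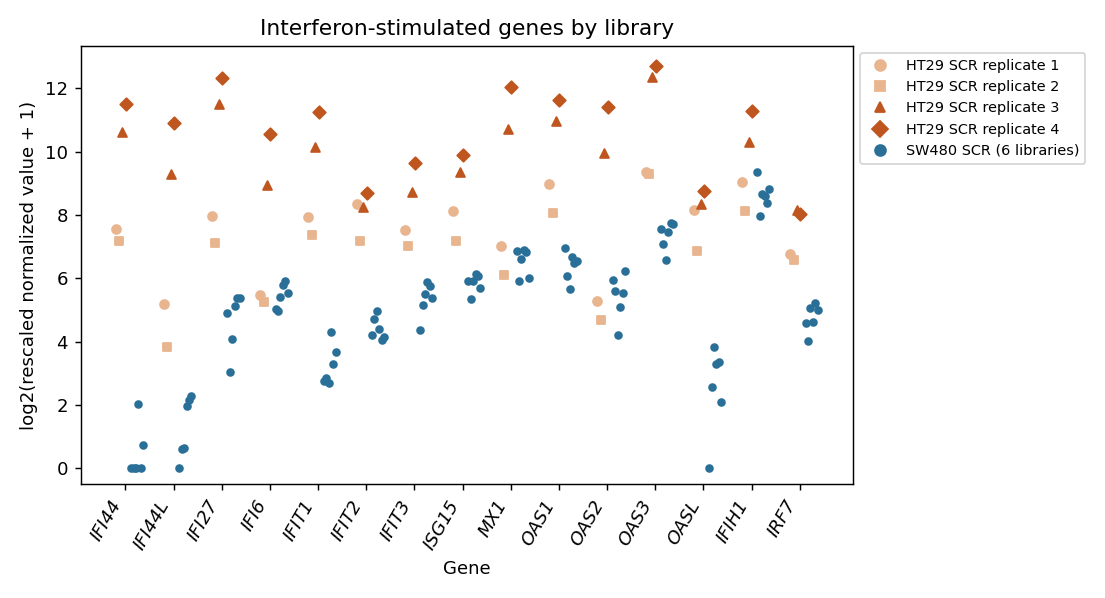
Level of 15 interferon-stimulated genes, as log2(level + 1) on the y axis, in HT29 SCR replicates 1 and 2 (light orange), replicates 3 and 4 (dark orange) and the 6 SW480 SCR libraries (blue). Replicates 3 and 4 lie above replicates 1 and 2 in 14 of the 15 genes, and for MX1, OAS2, IFI6 and IFIH1 replicates 1 and 2 lie among or near the SW480 libraries.

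Enzymes that handle drugs and aldehydes were higher in HT29. Of 54 genes, 49 were tested, 26 were higher in HT29 and 11 in SW480, with a median of 1.02. ALDH1A1, a retinaldehyde dehydrogenase, was at 20380, 20880, 17020 and 20050 in HT29 and between 6.85 and 34.2 in SW480. UGT1A10, a glucuronosyltransferase of the gut, was at 12420, 16000, 16540 and 14930 in HT29 and between 1.17 and 46.6 in SW480. UGT1A7, UGT1A8 and UGT1A9 were also among the 12 genes furthest toward HT29, but the UGT1A genes share most of their exons, so which member is expressed is uncertain. AKR1B10 (7.96), CYP1B1 (6.40) and the efflux pump ABCG2 (5.81) were higher in HT29, as were the antioxidant genes NQO1 (2.03), GPX2 (2.50), HMOX1 (2.27) and GCLM (1.86). The efflux pumps were split: ABCB1, which encodes P-glycoprotein, was at 14.7, 40, 33.8 and 20.5 in HT29 and between 4620 and 10010 in SW480, a difference of -7.90 ± 0.28, and ABCC2 was -4.29.

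HOXC and HOXD genes were higher in SW480, and HOXA and HOXB genes were split. Of 39 HOX genes, 30 were tested, 10 were higher in HT29 and 12 in SW480. HOXD8, HOXD9, HOXD10 and HOXD13 were all higher in SW480. HOXD9 and HOXD10 were listed at 0 in the 4 HT29 libraries, and at 21.8 to 36.4 and 11.6 to 151.5 in SW480. HOXC8, HOXC9, HOXC10 and HOXC11 were higher in SW480 by -2.22 to -4.21, and no HOXC or HOXD gene was higher in HT29. HOXA13, the gene of the most posterior body segment, was at 583.9, 628.3, 983.3 and 657.5 in HT29 and between 9.9 and 98.9 in SW480. Of the cancer-testis genes, which are normally expressed in germ cells only, 12 of 47 were tested. Of these, 8 were higher in SW480 and 1, MAGEA3, in HT29, a share of 75% against 55.7% of all genes. TEX15 and MAGEC2, at 0 in every HT29 library, passed the filter through SW480 alone, so this split rests in part on the filter. The list median was -3.22, and it was -0.55 without a filter. MAGEA3 was at 748.1, 667.0, 707.9 and 657.4 in HT29 and at most 0.89 in SW480, and its reads may be shared with its near-identical paralog MAGEA6. TEX15, a gene of male meiosis, was listed at 0 in all HT29 libraries and was between 143.8 and 460.0 in SW480.

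Known colorectal driver genes were called about as often as all genes. All 36 were tested, 13 were higher in HT29 and 7 in SW480, a share of 55.6% against 55.7% of all genes, and the median was 0.24. SMAD4, the shared mediator of TGF-beta signals, was at 477.2, 700.1, 644.5 and 764.2 in HT29 and between 81.0 and 191.3 in SW480, a difference of 2.30 ± 0.25. SRC (2.61), PIK3R1 (1.94) and SMAD3 (1.90) were higher in HT29. CTNNB1, which encodes beta-catenin, was at 9277, 8752, 10230 and 8896 in HT29 and between 21530 and 44700 in SW480. BRAF (0.26) and APC (-0.21) did not pass the test.

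The calls of cell cycle genes depended on the libraries compared and on the scaling. Of 30 proliferation genes, 3 were higher in HT29 and 2 in SW480, a share of 16.7% against 55.7% of all genes. For HT29 replicates 2 to 4 against SW480 replicates 4 to 6, a comparison chosen after the data were seen, 19 were higher in HT29 and 0 in SW480 (limma, adjusted p under 0.05), and the median was 0.57 in place of 0.09, while 4468 and 4680 of all 15080 genes were called. With the values as deposited, 0 were higher in HT29 and 5 in SW480, against 2320 and 6551 of all genes. Of 37 stress and hypoxia genes, 5 were higher in HT29 and 14 in SW480, a share of 51.4% against 55.7% of all genes. The median log2 level of this list was 10.39, 10.22, 8.30 and 8.76 in HT29 replicates 1 to 4 and between 9.84 and 10.84 in SW480. HT29 replicates 1 and 2 thus lay within the SW480 range, and replicates 3 and 4 below it. The glucose transporter SLC2A3, at 5.4 to 60.8 in HT29 and 16600 to 24450 in SW480, and CBS, an enzyme of sulfur amino acid metabolism (-8.22), were furthest toward SW480. CA9, a hypoxia-induced carbonic anhydrase (3.73), was furthest toward HT29. HSPA5, the chaperone of the endoplasmic reticulum, was at 71320 in HT29 replicate 1 and between 8475 and 17660 in the other 3 HT29 libraries, against 5159 to 8883 in SW480. Without HT29 replicate 1 its difference was 0.62 (limma, adjusted p = 0.0551), and for HT29 replicates 2 to 4 against SW480 replicates 4 to 6 it was 0.65 (adjusted p = 0.0684), and neither passed the test. HT29 replicate 1 was also the library with the highest AGR2 level.

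A few genes were detected in 1 line only. With a level of at least 100 in every library of a line and under 10 in every library of the other, 59 genes (0.391%) were detected in HT29 only and 167 (1.11%) in SW480 only. The counts were 89 and 326 for HT29 replicates 2 to 4 against SW480 replicates 4 to 6, and the SW480 count was 291 with SW480 replicates 4 to 6 alone and 101 with quantile normalization. The names that follow were chosen after their values were seen. In HT29 these included the factors GRHL3, OVOL1 and SPDEF, the adaptor CBLC, the fucosyltransferase FUT3, which makes Lewis antigens, the prostaglandin synthase PTGS2, the lipid receptor FFAR4 and the lipoxygenase ALOX5. In SW480 they included ELOVL5, a fatty acid elongase, BMP7, NOTUM, LEF1, SNAI2, the chemokine receptor CXCR4, the keratins KRT6A and KRT6B, the axon guidance receptor ROBO2, the glucocorticoid receptor NR3C1 and the T cell kinase ZAP70. Genes with names that begin with KCN, CACN, SCN, TRPV or GRI, most often used for ion channel subunits, made up 11 of the 167 (6.59%) and 0 of the 59. They were 0.623% of all genes tested, and the 11 included CACNA1H, KCNH2, KCNMA1 and GRIN2B. Genes detected in HT29 only had few CpG pairs in their promoters: the median ratio of observed to expected CpG was 0.36 over 36 windows, against 0.74 over 116 windows for SW480 and 0.83 over all genes. A ratio above 0.6 was found in 33.3%, 62.1% and 79.7% of these windows.

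Among the genes furthest toward HT29 beside those above were ANXA10, an annexin of gastric epithelium (10.2), TM4SF4 (9.99) and the nucleoside transporter SLC28A3 (9.17). Among those furthest toward SW480 were ELOVL5 (-10.02), KRT5 (-9.90), the Hedgehog factor GLI3 (-9.72), BMP7 (-9.63), ZAP70 (-9.32), NELL2 (-9.31), RIMKLB (-9.30) and the RNA-binding IGF2BP1 (-9.02). KRT5, the keratin of basal squamous cells, was at 130.6, 276.8, 0 and 240.7 in HT29 and between 34860 and 67620 in SW480. ELOVL5 was at 0, 0, 0.67 and 0 in HT29 and between 1038 and 1496 in SW480.

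The size of these folds rests on small levels in the lower line. For 27 genes at a mean of 2000 or more in SW480 and under 1% of that in HT29, HT29 SCR replicates 1, 2 and 4 held a median of 0.302%, 0.327% and 0.386% of the SW480 mean, and none of the 27 was at 0. HT29 replicate 3 held 0.0816%, with 7 of the 27 at 0, KRT5 and NELL2 among them. KRT5 was -7.97 in a fit without this library in place of -9.90. For 20 genes chosen the same way in HT29, the 6 SW480 SCR libraries held between 0.0540% and 0.308% of the HT29 mean. One silenced library, SW480 siPOLR1D-2 replicate 1, held 2.06%, against 0.0940% to 0.298% in the other 5 silenced SW480 libraries. Whether reads or cells passed between libraries was not tested.

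Markers of other cell types were few. Of 30 markers, 10 were tested, 2 were higher in HT29 and 6 in SW480, and the leukocyte marker MS4A1 was at 0 throughout. KRT5 (above), HBA1 (-7.14), LUM (-6.43), ALB (-6.30), VWF (-4.20) and COL1A1 (-3.31) were higher in SW480. Of the same cell types, KRT14, TP63, HBB, DCN, COL1A2, COL3A1, APOA1 and CDH5 had means at or under 7.13 in both lines. PECAM1, an endothelial marker like VWF, had means of 8.63 in HT29 and 3.34 in SW480. The keratins KRT6A and KRT6B, outside this marker list and detected in SW480 only, had means of 1380 and 1219 there. The 6 fibroblast markers summed to between 20.9 and 34.4 in HT29 and between 193.2 and 641.2 in SW480, and the 7 leukocyte markers to between 25.8 and 103.7 over all libraries. HT29 held LYZ, as given above, and CD14 at a mean of 29.9.

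POLR1D, a subunit shared by RNA polymerases I and III, and its neighbours on 13q12 were higher in HT29. HT29 was described by the study as carrying a focal gain there and SW480 as carrying a gain of the whole chromosome, and DNA was not measured in these libraries. POLR1D was at 6922, 5611, 5255 and 5948 in HT29 and between 1653 and 2320 in SW480 (median 1821), a log2 difference of 1.65 ± 0.12 (adjusted p = 4.41e-07, limma). The lines did not overlap. Of 32 genes listed for 13q12, 25 were tested, 15 were higher in HT29 and 7 in SW480, with a median of 0.97. The largest differences toward HT29 were those of the ubiquitin ligase LNX2 (2.02), the proteasome maturation factor POMP (1.90) and MTIF3 (1.68). The deadenylase subunit PAN3 (1.66), the amino acid transporter SLC7A1 (1.58), RPL21 (1.57), USPL1 (1.54) and the transcription factor GTF3A (1.45) were also higher. RNF6 (1.385), NUP58 (1.09), HMGB1 (0.97), USP12 (0.96), UBL3 (0.91) and RASL11A were higher in HT29 by less. HMGB1 lost its call with the values as deposited (0.57, limma, adjusted p = 0.0797). RASL11A lost its call with scaling by median of ratios (0.94, limma, adjusted p = 0.0597).

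Not every neighbour followed. CDK8, the Mediator kinase, was at 2021, 2281, 2418 and 2545 in HT29 and between 1960 and 4881 in SW480, and its difference of -0.34 ± 0.24 did not pass the test (adjusted p = 0.242, limma). It was called higher in SW480 with the values as deposited (-0.74, adjusted p = 0.0186), with quantile normalization (-0.57, adjusted p = 0.0366) and with SW480 replicates 1 to 3 alone (-0.76, adjusted p = 0.0111). CDX2, WASF3 (-7.81), ATP8A2 (-4.38), ALOX5AP, FLT1 (-3.34), KATNAL1 (-2) and PDX1 (-1.90) were higher in SW480, FLT1 with the exceptions given above. PDX1, at most 17.5 in any library, lost its call without HT29 replicate 2 (-1.37, limma, adjusted p = 0.058). It also did so with SW480 replicates 1 to 3 alone (-1.61, adjusted p = 0.125). KATNAL1 lost its call with SW480 replicates 4 to 6 alone (-1.88, adjusted p = 0.0522). FLT3, the kinase gene next to these, was at means of 0.77 and 0.30 and was not tested. The 7 genes higher in SW480 had HT29 means of at most 63.5.

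Over all 252 tested genes of chromosome 13 the median difference was 0.37, against -0.02 over all genes, with 47.6% higher in HT29 and 22.6% in SW480. With the values as deposited it was -0.027, against -0.42 over all genes. From 2 Mb before to 5 Mb after the start of POLR1D, 22 of 31 tested genes were higher in HT29 and 6 in SW480, with a median of 1.32. The distance limits used here and below were not set in advance. With 171 coding genes of the chromosome at a mean of 50 or more in both lines, a restriction chosen after the data were seen that leaves out genes near 0 in 1 line, such as CDX2, WASF3 and FLT1, the median difference was 0.71, against 0.11 over 9885 such genes on all chromosomes. Of these, 19 of the 21 genes from 2 Mb before to 5 Mb after POLR1D were higher in HT29 and the median was 1.53. It was 1.04 over the 21 genes from 10 to 2 Mb before, 0.50 over 23 genes from 5 to 15 Mb after, 0.17 over 43 genes from 15 to 40 Mb after (-0.13 over all 66 tested there), and 0.74 and 0.81 in the more distant parts. In the silenced libraries the median from 2 Mb before to 5 Mb after was also 1.53.

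**Figure D4:**
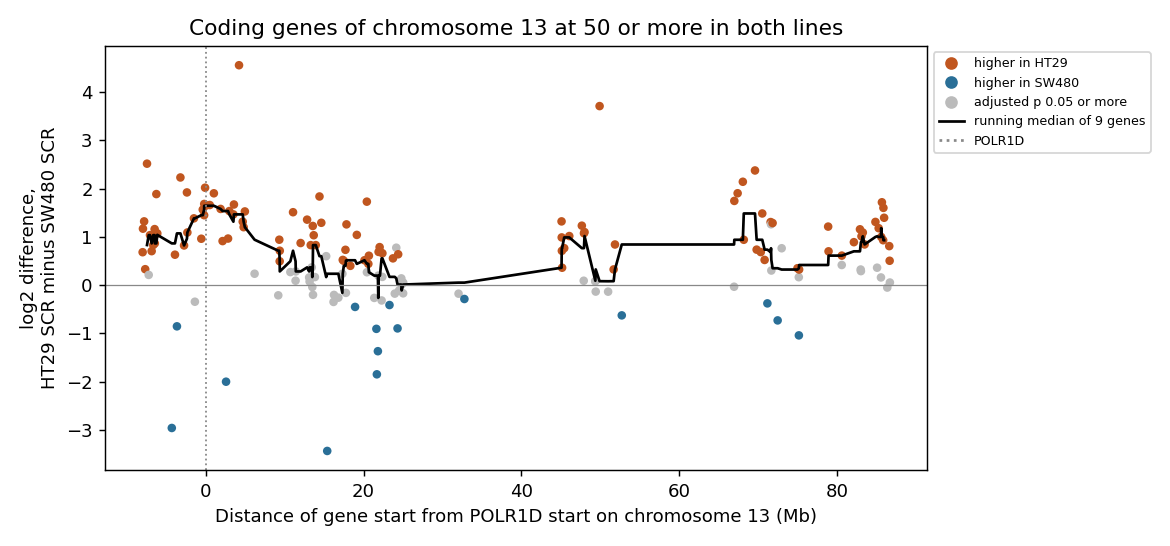
Log2 difference (HT29 SCR minus SW480 SCR, y axis) of 171 coding genes of chromosome 13 against their distance from the start of POLR1D in Mb (x axis), coloured by call, with a running median of 9 genes. From 2 Mb before to 5 Mb after POLR1D 19 of 21 genes are higher in HT29 with a median of 1.53, and from 15 to 40 Mb after it the median is 0.17.

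Medians also differed between other chromosomes. In the same 9885 genes the median was -0.70 on chromosome 21, -0.62 on chromosome 14, 0.59 on chromosome 15, 0.51 on chromosome 8 and 0.41 on chromosome 11. On chromosome 21, 63.3% of 98 genes were higher in SW480 and 6.12% in HT29. Among 235 windows of 10 Mb with at least 15 genes, the highest median was 2.12, over 26 genes from 120 to 130 Mb of chromosome 8 (GRCh38). Of these, 22 were higher in HT29. Chromosome 8 was not uniform: the median was -0.67 from 20 to 30 Mb, where 25 of 40 genes were higher in SW480. The highest window holds MYC, which was higher in SW480 (-1.63). The lowest window median, -0.90, lay from 70 to 80 Mb of chromosome 14, where 42 of 55 genes were higher in SW480. Medians in the silenced libraries were 2.02 and -0.74 in these 2 windows. Copy number was not measured, and its part in these differences was not tested.

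The differences between the lines were found again in the POLR1D-silenced libraries. There, 4586 genes (30.4%) were higher in HT29 and 4625 (30.7%) in SW480 (limma, adjusted p under 0.05). Of the 2122 genes higher in HT29 by 2-fold or more in SCR libraries, 1997 (94.1%) were called in the same direction, and of the 3052 higher in SW480, 2801 (91.8%) were. Of the 5174 together, 33 had the opposite sign and 1 of these was called. Of the 59 and 167 genes detected in 1 line only, 28 and 124 met the same limits in the silenced libraries, and all had the same sign. The counts of 28 and 124 include SW480 siPOLR1D-2 replicate 1, which held HT29 genes as given above. Among silenced SW480 libraries, RAB25 (19.7), MAGEA3 (17.5) and BCAS1 (38.2) exceeded the limit of 10 only there. LGALS4 and UGT1A8 also exceeded it in siPOLR1D-3 replicate 2. Without siPOLR1D-2 replicate 1, the counts of called genes were 4618 in HT29 and 4614 in SW480, and the 1-line genes were not counted again. Across the 15080 genes, the SCR and silenced differences correlated with r = 0.961, as a description over genes that share cell lines. KRT20 differed by 6.04 in the silenced and 8.90 in the SCR libraries, CDX2 by -3.53 and -5.91, VIM by -9.55 and -8.93, NKD1 by -7.82 and -9.39, CDH1 by 3.91 and 4.36 and POLR1D by 1.98 and 1.65.

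A difference that itself changed with silencing was found for 7 genes (0.0464%) by an interaction term in a fit of all 20 libraries (limma, adjusted p under 0.05), and 1290 had an unadjusted p under 0.05. CTSH, the protease cathepsin H, was at 3654, 3831, 3693 and 4603 in HT29 and between 48.7 and 75.5 in SW480. Its line difference was 6.05 in SCR and 4.51 in silenced libraries (adjusted p = 0.0226). GCOM1 differed by 1.72 and 3.16 (adjusted p = 0.0188), and the kinase inhibitor CAMK2N1 by -0.01 and 2.49 (adjusted p = 0.0219). SAR1B, a GTPase of vesicle budding, differed by 1.13 and 0.09 (adjusted p = 0.0219), and LSM14A, a factor of RNA granules, by 1.36 and 0.48 (adjusted p = 0.0334). The number of such genes rested on single libraries: it was 0 without HT29 siPOLR1D-3 replicate 1, 2 without HT29 SCR replicate 2 or SW480 siPOLR1D-2 replicate 1, and 4 without SW480 SCR replicate 4, siPOLR1D-2 replicate 2 or siPOLR1D-3 replicate 2. It was 12 without SW480 SCR replicate 2 and 20 without HT29 SCR replicate 3.

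**Figure D5:**
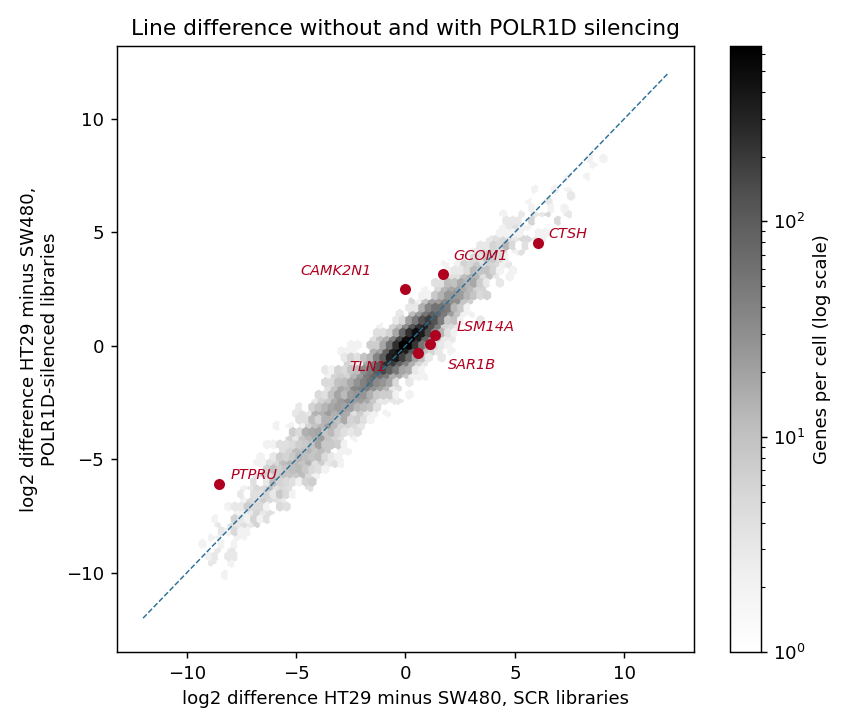
Log2 difference between the lines in the POLR1D-silenced libraries (y axis) against that in the SCR libraries (x axis) for the tested genes, shaded by the number of genes per cell on a log scale, with the line of equal difference dashed. Most genes lie along the dashed line (r = 0.961), and the 7 genes whose difference changed (red) lie off it.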

How the data were processed

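Per the labels, total RNA was enriched for coding exons with a TruSeq RNA Exome kit and sequenced on an Illumina NextSeq instrument. The submitters' processing notes name FastQC 0.11.5, kallisto 0.44.0, DESeq2 1.24.0 and hg38. The deposited values are a signal per gene, read counts that the authors divided by size factors within each line, and they are not whole, so no count model was used. Values sharing a gene name were summed, all 10 SCR libraries were scaled to a common upper quartile, and genes at 10 or more in at least 4 libraries were kept. Differences of log2(value + 1) were tested with limma 3.58.1 (R 4.3.3; mean-variance trend, Benjamini-Hochberg adjustment over all 15080 genes, threshold 0.05), and named genes also with an exact 2-sided permutation test, whose smallest p for 4 against 6 libraries is 0.00952. A fold change on this scale understates the change of low genes. The silenced libraries were compared in the same way, and an interaction was fitted over all 20 libraries. The procedure was tested on simulated data. Positions and gene types came from GENCODE 29, and promoter sequences from RefSeq (GRCh38.p14).

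Named genes were, for each of 16 lists, up to 3 called members per direction with the largest difference and members whose role describes the list, the 12 genes per line with the largest difference, no overlap and a mean of at least 500 in the higher line, a set of anchor genes, the 13q12 list, and the 5 genes with the smallest interaction p. The libraries compared and the lists were chosen with earlier results of these data known. Alternatives covered scaling, filter, pseudocount, weights, replicate block and omitted libraries. Some genes that meet these rules are not reported here.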

Additional observations from a re-analysis of the deposited data

Results flagged for a closer look

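A library far from the others of its line was found in 8 of 106 groups of named-gene values tested with Dixon's ratio of gap to range of log2 levels, where chance gives about 1 in 20. AGR2 in HT29 had a ratio of 0.937, with replicate 1 at 25260 and the next library at 2085. HT29 replicate 3 was the lowest library for KRT5 (0.867, at 0 against 130.6) and NELL2 (0.867, at 0 against 18.6). MUC2 in SW480 had a ratio of 0.700, with replicate 3 at 175.6 and the next library at 63.9. LGALS4 in SW480 had a ratio of 0.639, with replicate 1 at 0 and the next at 3.11. ELOVL5 (replicate 3) and RIMKLB (replicate 4) in HT29 and ALOX5 (replicate 4) in SW480 had a ratio of 1, since 1 library was above 0, at 0.669, 0.997 and 1.2.

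The line difference changed with POLR1D silencing, by an interaction term (limma, adjusted p under 0.05), in 7 genes. The change on the log2 scale was 2.48 for CAMK2N1, -1.56 for CTSH, 1.41 for GCOM1, -0.90 for LSM14A, 2.39 for PTPRU, -1.06 for SAR1B and -0.89 for TLN1. PTPRU and TLN1, which fall outside the rule for named genes, had adjusted p-values of 0.0453 each.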

How the results depend on the processing

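With the values as deposited, 2320 genes were higher in HT29, 1322 of them by 2-fold or more, and the median over all genes was -0.42 in place of -0.02. The list medians there were 0.018 (colonocyte), 0.93 (mucin), 0.75 (epithelial), -3.33 (mesenchymal), -2.03 (Wnt), -0.45 (EGF), -0.82 (HOX), 0.63 (detoxification), -0.15 (driver), 0.57 (13q12), -2.43 (other cell types) and -0.027 (chromosome 13). Quantile normalization gave 101 SW480-only genes and medians of 1.13 (colonocyte), 1.71 (mucin), -2.60 (mesenchymal), -1.25 (Wnt), -0.10 (HOX), -2.49 (cancer-testis), -2.77 (other cell types) and 0.49 (chromosome 13). HT29 replicates 2 to 4 against SW480 replicates 4 to 6 gave 89 HT29-only and 326 SW480-only genes and medians of 0.67 (colonocyte), -3.60 (mesenchymal), -1.95 (Wnt), -4.59 (other cell types) and 0.50 (chromosome 13). SW480 replicates 4 to 6 alone gave 291 SW480-only genes and medians of 0.96 (mucin), -3.45 (mesenchymal), 0.58 (detoxification) and -4.45 (other cell types), and replicates 1 to 3 alone gave 0.89 (colonocyte), -2.64 (mesenchymal), -3.06 (other cell types) and 0.49 (chromosome 13). Without a filter the medians were -0.15 (colonocyte), 0.53 (mucin), -2.06 (mesenchymal), -0.55 (cancer-testis), 0.61 (detoxification) and -0.77 (other cell types), and with a filter of 50 they were 2.02 (mucin), -1.14 (VEGF), 0.29 (HOX), -6.004 (cancer-testis), -6.30 (other cell types) and 0.61 (chromosome 13). Array weights gave 1.02 (mucin), -3.50 (mesenchymal), 0.63 (detoxification), -4.32 (other cell types) and 0.50 (chromosome 13). A pseudocount of 0.1 gave -3.34 (mesenchymal), -4.80 (cancer-testis) and -4.38 (other cell types), and one of 5 gave -2.57, -1.91 and -2.99. Features left unsummed gave 0.77 (colonocyte), 2.23 (mucin) and 0.18 (EGF), and coding genes at 50 or more in both lines gave 0.71 for chromosome 13. The causes were not tested.

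Same-numbered libraries of the lines did not deviate together (correlations of 0.0858, 0.0441, -0.0636 and -0.00958). These values cannot show whether libraries with the same number were handled together. With the replicate number as a block, 3115 genes were higher in HT29 and 3537 in SW480, and the medians were 0.70 (colonocyte), 1.63 (mucin), -2.55 (mesenchymal) and 0.46 (chromosome 13).

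Leaving out each library in turn gave 3558 to 3999 genes higher in HT29 and 4035 to 4428 in SW480, 2041 to 2130 and 2945 to 3096 by 2-fold or more, and 59 to 66 and 167 to 193 detected in 1 line only. The medians ranged from 0.18 to 0.76 (colonocyte), 1.01 to 1.54 (mucin), -3.29 to -2.73 (mesenchymal), -1.80 to -1.38 (Wnt), -0.87 to -0.32 (VEGF), -0.65 to -0.06 (stress), -0.19 to 0.45 (proliferation) and 0.36 to 0.48 (chromosome 13), and the interaction counts from 0 to 20. No named gene reversed under any alternative run, 21 lost their call under at least 1, and 4 (EGFR, SLC46A3, MTUS2 and CDK8) gained one.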

Other observations

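Genes named as zinc finger proteins (ZNF or ZFP) made up 482 of the tested genes, of which 107 were higher in HT29 and 173 in SW480 (limma, adjusted p under 0.05), with a median log2 difference of -0.23. Over all genes tested, 26.5% were higher in HT29 and 29.2% in SW480. The zinc finger names were 11 of the 167 genes detected in SW480 only (6.59%) and 3 of the 59 detected in HT29 only (5.09%). They were 3.20% of all genes tested. The 94 genes with names that begin with KCN, CACN, SCN, TRPV or GRI had a median of -1.68, with 18 higher in HT29 and 51 in SW480. Such names also take in genes that are not channel subunits, such as KCNRG. These name groups were chosen after the data were seen.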
